A study of Capsicum annuum with 78 samples.

Results

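The leaf transcriptome of pepper was compared at 24 h after spraying with salicylic acid (SA) and after spraying with water (mock). The comparison took 6 of the 78 RNA-seq libraries of the series, 3 per treatment, and all 35884 genes of the count table. SA was given as a spray of its salt sodium salicylate at 5 mM, and mock as a spray of distilled water. Both groups were leaves of Capsicum annuum cv. Bukang at 6 weeks of age, from the same 24 h time point. Each library held the third or the fourth leaf of 4 pooled plants, so the spread between replicates is a spread between pools. The treatments were kept apart in the growth chamber, so an effect of SA and an effect of a separate incubation cannot be told apart. The other libraries of the series, sampled from 0 to 24 h after mock, SA, ET (ethephon), MeJA (methyl jasmonate) or ABA, served to place the 24 h result.

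SA is a plant hormone best known from defence against pathogens that feed on living tissue, and from the resistance that spreads to distant leaves after a local infection. It acts largely through the coactivator NPR1 and TGA transcription factors, whose targets include genes for pathogenesis-related proteins. Applied SA is taken up and then conjugated, mostly with sugars, so a sprayed leaf can pass from a period of high free hormone to a later one of stored conjugates. The comparison at the last time point asks which differences from mock were measured a day after spraying.

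The 3 SA libraries held 5002113, 5180064 and 5757173 counts, against 6778012, 8054316 and 7529263 counts in the 3 mock libraries. Depth did not overlap between the groups, and a floor of 3 counts stood between 0.534 and 0.598 CPM in the SA libraries and between 0.431 and 0.549 CPM in the mock libraries. CPM, the usual depth-scaled count, here includes TMM scaling factors, and the floor covers counting error only. On log2(CPM + 1), the correlation across genes was 0.9921 to 0.9928 within SA, 0.9899 to 0.9922 within mock and 0.9839 to 0.9857 between the groups. No pair of replicates agreed within sampling noise. The chi-square statistic per degree of freedom was 2.48 to 2.93 within SA. Within mock it was 4.89 for replicates 1 and 2, and 10.4 and 12.7 for the pairs with replicate 3, which stood somewhat apart. The deposited identifiers come without gene names, so leaf markers and known SA marker genes could not be looked up. For the same reason only 4 genes, chosen by a fixed rule, are given by identifier.

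At 24 h, 1407 genes were higher after SA than after mock and 1480 were lower, out of 18569 genes tested (7.58% and 7.97%, with edgeR's quasi-likelihood test at an adjusted p of 0.05). The 2 numbers were close, and their order turned with DESeq2 (1455 higher and 1431 lower), with all 78 libraries (1372 and 1364), and without mock replicate 1 (1060 and 1026) or 2 (1319 and 1280). The median log2 fold change was 0.76 among the raised genes, and 0.75 when genes without counts in mock were set to their lower bound. It was -0.61 among the lowered genes. A log2 fold change of at least 1 was reached by 527 raised genes (2.84% of those tested) and -1 or less by 236 lowered genes (1.27%). A change of at least 2 was reached by 255 raised genes (1.37%) and 32 lowered genes (0.172%), and one of at least 3 by 147 raised genes (0.792%) and 8 lowered genes (0.0431%). With the genes at 0 in mock set to their lower bound, 510 raised genes reached 1, 222 reached 2 and 107 reached 3. In bulk leaf RNA, fewer cells of a type and less RNA per cell cannot be told apart.

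The 3 SA values lay entirely above the 3 mock values for 1312 of the 1407 raised genes and entirely below them for 1359 of the 1480 lowered genes. Among all genes tested, 14.8% lay entirely above and 13.7% entirely below. The near balance of rises and falls rests on the scaling. TMM takes most genes as unchanged and put the median log2 fold change of all genes at 0.00. With library totals in its place the median was 0.21, and 3649 genes (19.7%) were called higher and 699 (3.76%) lower. A fit of only the 6 libraries of 24 h called 900 genes higher (5.48%) and 1062 lower (6.46%) of 16438 tested, and 97.5% of its calls were among those of the main fit, all in the same direction. They made up 66.2% of the main fit's calls. Thinning every library to the same depth left 2629 calls. Without mock replicate 3, 2628 genes were called, 2179 of them also with it.

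**Figure D1:**
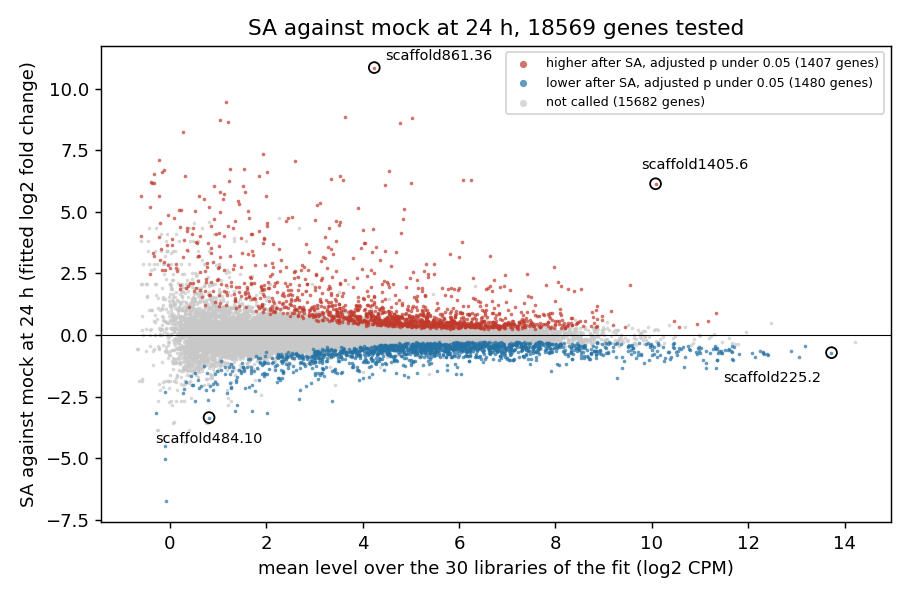
Fitted log2 fold change of SA against mock at 24 h (vertical axis) against the mean level of each gene over the 30 SA and mock libraries of 1 to 24 h (horizontal axis, log2 CPM). Red points are the 1407 genes called higher, blue points the 1480 called lower, grey points were not called, and circles mark the 4 genes given by identifier. Large rises sit at low and middle levels, and at the right end of the plot most of the called points are blue.

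CA.PGAv.1.6.scaffold861.36 had the largest rise by log2 fold change. It had 165, 230 and 173 counts in the SA libraries, against 0, 0 and 0 counts in the mock libraries, although the mock libraries were deeper. Its level of 36.1 ± 7.51 CPM (SD, n = 3) after SA exceeded the floor of 3 counts per mock library at least 76.6-fold (adjusted p = 2.45e-12, edgeR). Mock libraries of the other times held at most 5 counts of it, while ET libraries held 6 to 20 counts at 6 h and 15 to 17 at 12 h. After SA, it had 0.12 CPM at 1 h and 6.54 CPM at 3 h, then 62.8 CPM at 6 h and 75.4 CPM at 12 h. At 24 h its counts per library were 2 to 7 after ET, 0 to 1 after MeJA and 0 to 3 after ABA, and SA differed from each of the other hormones (adjusted p of 5.26e-10, 2.51e-09 and 1.1e-09, edgeR).

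CA.PGAv.1.6.scaffold1405.6 gained more CPM than any other gene that met the rule. It had 2025, 2364 and 2321 CPM in the SA libraries, against 42.1, 10.9 and 42.1 CPM in the mock libraries. The groups did not overlap, and mock replicate 2 was the lowest of the 6. The log2 fold change was 6.14 with a standard error of 0.44 (adjusted p = 6.46e-12, edgeR). Unlike the previous gene it was already higher at 1 h, with 209.2 ± 121.9 CPM after SA and 19.1 ± 6.91 CPM after mock (SD, n = 3 each). After SA it was at 558.2 CPM at 3 h, then 3149 CPM at 6 h and 4415 CPM at 12 h, and its mean level at 24 h lay below the means of 6 and 12 h. ET leaves had 2043 ± 183.0 CPM at 24 h (SD, n = 3), and the direct log2 difference of SA from ET was 0.15 with a standard error of 0.34 (adjusted p = 0.761, edgeR). MeJA leaves had 205.2 CPM and ABA leaves 266.7 CPM at the same time.

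**Figure D2:**
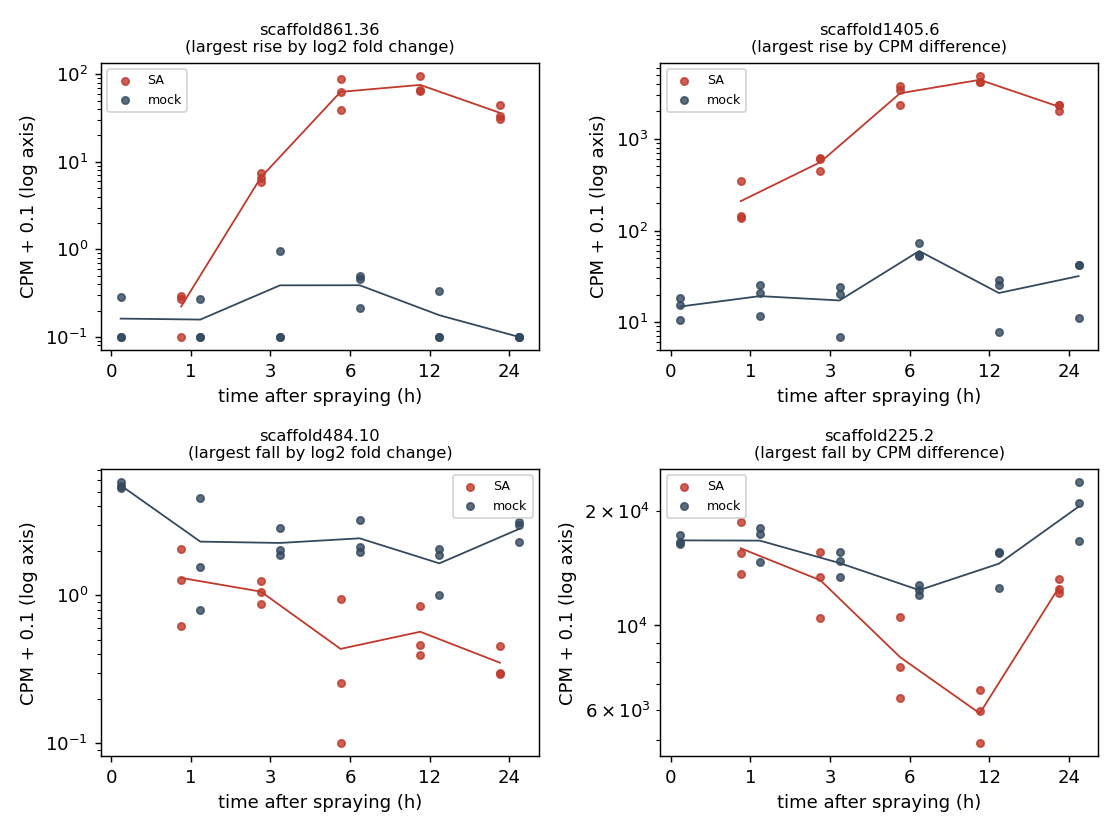
Level of the 4 genes given by identifier (CPM + 0.1, logarithmic axis) by time after spraying, with a point for each library of SA (red) and mock (dark) and lines through the group means. At 24 h the 3 SA points lie above the 3 mock points in both upper panels and below them in both lower panels, and the lower right panel shows SA lowest at 12 h.

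CA.PGAv.1.6.scaffold484.10 had the largest fall by log2 fold change among genes with at least 10 counts in every mock library. It had 1, 1 and 2 counts in the SA libraries, against 12, 21 and 20 counts in the mock libraries. The ratio of SA to mock was 0.0924, with a 95% counting interval of 0.0243 to 0.251 (exact binomial, counting error only). The fitted log2 fold change was -3.34 with a standard error of 0.72 (adjusted p = 0.00123, edgeR). At such counts the size of the fall is poorly known, while the groups were clearly apart. After SA it had 0.33 CPM at 6 h and 0.47 CPM at 12 h, and its falls at 6 and 12 h also passed the test (adjusted p = 0.000871 and 0.0224, edgeR). In mock leaves it had 5.44 CPM at 0 h, 1.54 CPM at 12 h and 2.71 CPM at 24 h. With the other hormones it had 0.69 CPM after ET, 1.31 CPM after MeJA and 1.48 CPM after ABA at 24 h, all below mock. By the direct test SA was lower than MeJA and ABA (adjusted p = 0.0205 and 0.00969, edgeR). It did not differ detectably from ET, with a log2 difference of -1.35 and a standard error of 0.72 (adjusted p = 0.136, edgeR).

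CA.PGAv.1.6.scaffold225.2 lost more CPM than any other gene that met the rule. It had 12485, 12210 and 13278 CPM in the SA libraries, against 23829, 21062 and 16724 CPM in the mock libraries. The mock values spread widely, and the lowest of them, replicate 3, was still above all SA values. The log2 fold change was -0.71 with a standard error of 0.16 (adjusted p = 0.00239, edgeR). It was -0.84 without mock replicate 3, -0.69 without mock replicate 2 and -0.59 without mock replicate 1. With library totals as the scaling it was -0.49. The gene did not differ detectably from mock at 1 and 3 h (adjusted p = 0.879 and 0.634, edgeR). It fell by 0.58 on the log2 scale at 6 h and by 1.35 at 12 h. The 24 h difference was smaller than that at 12 h by the direct test, with a difference of 0.64 and a standard error of 0.23 (adjusted p = 0.0403, edgeR). That call was lost with each of 5 of the 6 libraries of 24 h left out (adjusted p = 0.0546 to 0.12), mock replicate 1 being the exception. Among the other hormones at 24 h its level was 17669 CPM after ET, 16786 after MeJA and 19673 after ABA, all higher than after SA by the direct test (adjusted p = 0.00416, 0.0253 and 0.00118, edgeR).

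Many other heavily counted genes were lower after SA as well. The 100 tested genes with the most counts in the SA and mock libraries of 1 to 12 h were taken as a group, a choice that used no library of 24 h. Together they held 28.4%, 28.4% and 28.7% of all counts in the SA libraries, against 36.3%, 34.6% and 32.3% in the mock libraries of 24 h. The groups did not overlap, and the difference of the means was -5.89 percentage points (two-sided exact permutation test, p = 0.1, the smallest that 3 against 3 libraries allow). Of the 100 genes, 68 were called lower after SA and 6 higher, where 7.97% and 7.58% of all tested genes were. Their median log2 fold change was -0.54. With library totals as the scaling, 58 were called lower and 10 higher, where 3.76% and 19.7% of all tested genes were, with a median of -0.34. Without mock replicate 3, 74 were called lower and 5 higher. Shares of counts are relative, so a smaller share of these genes leaves a larger one to the others.

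**Figure D3:**
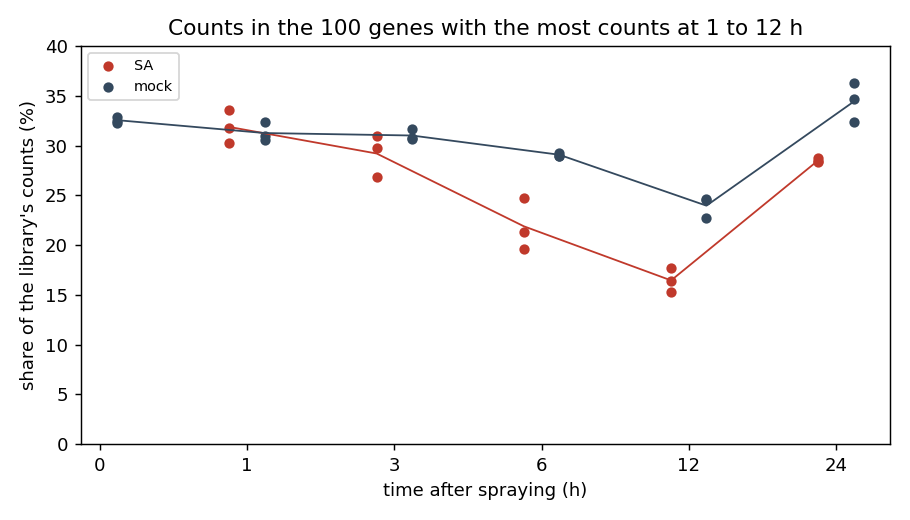
Share of each library's counts (vertical axis, percent) held by the 100 tested genes with the most counts at 1 to 12 h, by time after spraying, for SA (red) and mock (dark), with a point per library and lines through the group means. The SA libraries of 24 h sit between 28.4% and 28.7%, all below the mock libraries of 24 h, and both treatments are lowest at 12 h.

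The share of the same 100 genes followed the time of sampling in both treatments. It was 16.5 ± 1.26% after SA and 23.96 ± 1.09% after mock at 12 h, and 21.9 ± 2.64% after SA and 29.1 ± 0.191% after mock at 6 h (SD, n = 3 each). At 12 h, 85 of the 100 genes were called lower after SA, where 23.9% of all genes tested were, with a median log2 fold change of -0.96. The 12 h libraries were among those the 100 genes were chosen on. In mock leaves of 0 h the share was 32.5 ± 0.338% (32.2% to 32.9%), above all SA libraries of 24 h and overlapping with mock of 24 h, whose replicate 3 had 32.3%. Of the 100 genes, 85 had a lower mean CPM in SA leaves of 24 h than in mock leaves of 0 h, and 63 a higher one in mock leaves of 24 h than in mock leaves of 0 h.

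The tested genes were also divided into 10 classes of equal size by their mean CPM at 1 to 12 h. In the highest class, 12.7% were called higher and 23.7% lower after SA, where 7.58% and 7.97% of all genes tested were. With library totals as the scaling the order turned, with 654 higher and 256 lower of 1857 genes. Of all genes tested, 19.7% were called higher and 3.76% lower with that scaling. In the lowest class, 5.23% were called higher and 1.45% lower. Called rises of 1 or more on the log2 scale numbered 97 in the lowest class and 38 in the highest. Of all genes tested, 2.84% had such a rise. In the lowest class all called rises were of that size. Small changes pass the test more easily in well counted genes, and the part of counting precision in these shares was not tested.

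**Figure D4:**
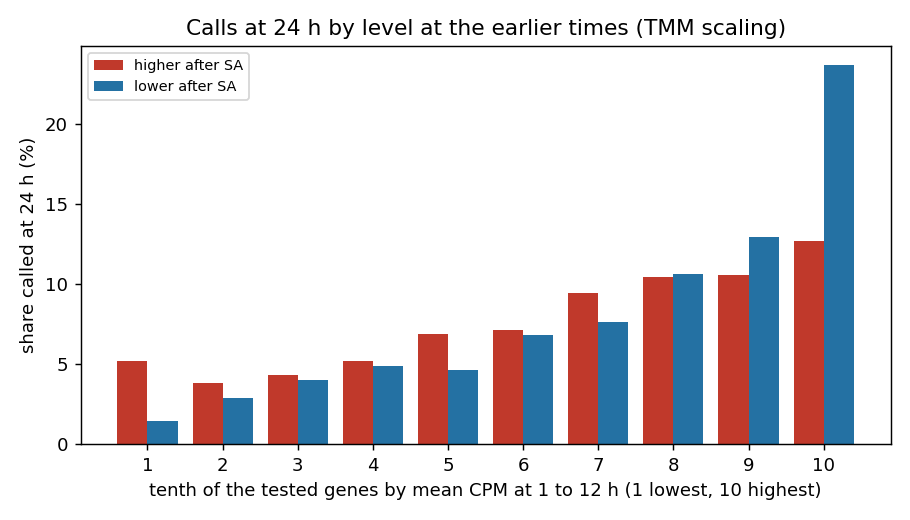
Share of genes called higher (red) and lower (blue) after SA at 24 h (vertical axis, percent) in each of 10 equal classes of the tested genes by mean CPM at 1 to 12 h (horizontal axis, lowest to highest). In the highest class 12.7% were higher and 23.7% lower with TMM scaling, against 7.58% and 7.97% of all genes tested. Library totals gave 654 higher and 256 lower of the 1857 genes there, against 19.7% and 3.76% of all genes tested.

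The raised genes took 8.99% to 9.17% of all counts in the SA libraries and 4.53% to 4.91% in the mock libraries. The lowered genes took 31.8% to 32.1% in the SA libraries and 41.8% to 44.9% in the mock libraries. These lists were chosen by the same contrast, so the shares describe their size and test nothing. The 527 genes raised by 1 or more on the log2 scale held no more than 1.84% of any SA library.

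Some genes had counts at 24 h in SA leaves and none in mock leaves. Of 126 tested genes without a count in the mock libraries of 24 h, 48 were called. Without counts in mock a called gene can only be higher, so the direction was given by the choice. In the 3 SA libraries together the 48 genes had between 6 and 568 counts, with a median of 20. At the floor of 3 counts per mock library, 8 of the 48 were at least 10-fold higher, while for 5 the SA mean did not exceed the floor. Of the 48 genes, 8 had no count in any of the 18 mock libraries of 0 to 24 h. All 48 had counts in SA libraries of earlier times, and 45 were also called higher at 12 h, where 23.3% of all genes tested were. The choice on the 24 h mock libraries favours genes that passed the filter through SA libraries, so nothing is read from this count. In the other direction, 45 tested genes had no count in the SA libraries and 3 of them were called, with 8 to 38 counts over the mock libraries. Of the 20 genes with the largest fitted rises, 18 were at 0 in mock, so that their fitted folds depend on the prior count. All 20 were also raised at 12 h (23.3% of all genes tested), 18 at 6 h (21.6%), 12 at 3 h (15.8%) and 3 at 1 h (7.53%). The fit of 6 libraries called 14 of them. Here too, genes at 0 in mock are favoured to have passed the filter through SA libraries. Nothing is therefore read from the overlap of these rises with the earlier times. Of the 20 genes with the largest fitted falls, 3 were at 0 in SA, so that their fitted folds depend on the prior count. Of the same 20 genes, 14 were also lowered at 12 h (23.9% of all genes tested), 14 at 6 h (19.2%), 7 at 3 h (13.1%) and 1 at 1 h (6.1%). The fit of 6 libraries called 9 of them.

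The time course asked which of the earlier differences were still measured at 24 h. These comparisons used other libraries, treated and mock, than the 24 h comparison. They came from the same model, so the estimated spread of each gene was shared between the times. At 1 h, 2532 genes were called (13.6% of those tested), and 5357 (28.8%) at 3 h. Calls numbered 7574 (40.8%) at 6 h and were most numerous at 12 h, with 8762 genes (47.2%), before the 2887 genes (15.5%) of 24 h. When each time point was fitted alone, 8987 genes were called at 12 h and 1962 at 24 h. Of the 4318 genes raised at 12 h (23.3% of those tested), 1004 (23.3%) were raised at 24 h and 128 (2.96%) were lowered, against 7.58% and 7.97% of all genes tested. Of the 4444 genes lowered at 12 h (23.9%), 965 (21.7%) were lowered at 24 h and 116 (2.61%) were raised. Together the 1969 genes that kept their direction made up 22.5% of the 12 h calls and 68.2% of the 24 h calls. With each time point fitted alone, the genes that kept their direction numbered 1382, of which 670 were raised and 712 lowered. With library totals they numbered 2884, of which 2427 were raised and 457 lowered. Whether or not they passed the test again, 75.4% of the genes raised at 12 h and 73.3% of those lowered had a 24 h difference of the same sign. Among the 6407 genes called at no time from 1 to 12 h, 50.3% had a positive and 49.7% a negative 24 h difference.

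**Figure D5:**
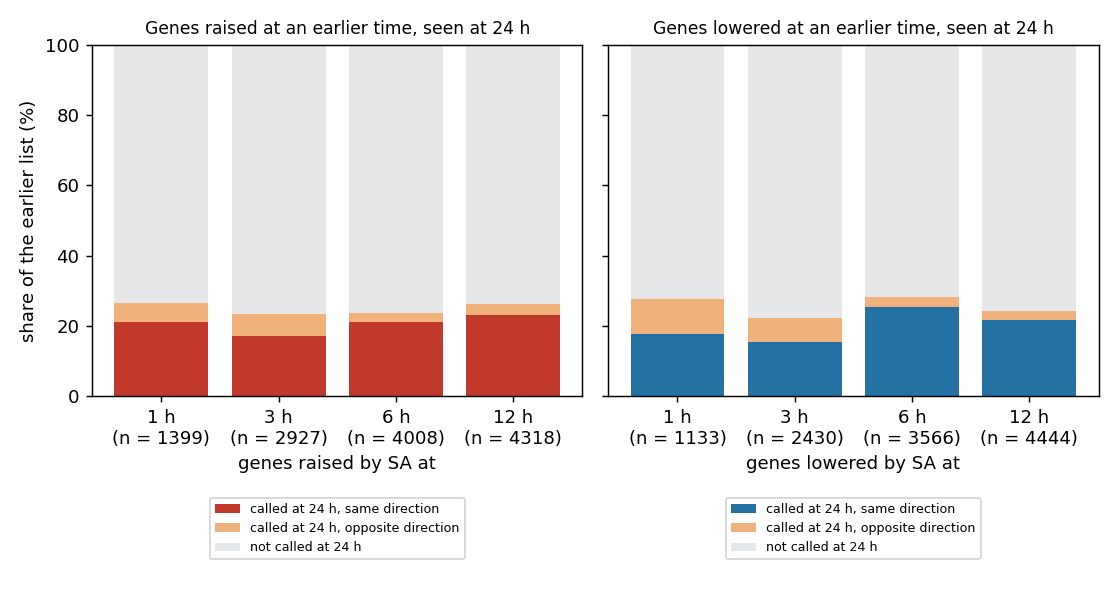
Outcome at 24 h of the genes called raised (left) or lowered (right) by SA at 1, 3, 6 or 12 h, as a share of each earlier list (vertical axis, percent), with the size of the list under each bar. Coloured parts were called at 24 h in the same direction, orange parts in the opposite direction, and grey parts were not called. The same-direction part is between 15.5% and 25.3%, and the orange part is largest for genes lowered at 1 h (9.97%).

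The earlier lists were followed in the same way. Of the 1399 genes raised at 1 h (7.53% of those tested), 21.2% were raised at 24 h and 5.5% were lowered. Of the 1133 genes lowered at 1 h (6.1%), 17.8% were lowered at 24 h and 9.97% were raised, where 7.58% of all genes tested were raised. At 3 h, 17.3% of the 2927 raised genes (15.8% of those tested) were raised again at 24 h and 15.5% of the 2430 lowered genes (13.1%) were lowered again. At 6 h the shares were 21.2% of 4008 raised genes (21.6% of those tested) and 25.3% of 3566 lowered genes (19.2%). Calls at earlier times also depended on level, with 327 genes raised at 12 h in the lowest of the 10 classes and 552 in the highest, and the part of level in these shares was not tested.

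The share of genes called at 24 h was higher the more earlier times they had been called. Among genes not called at any time from 1 to 12 h, 2.09% were raised at 24 h and 2.48% lowered. The share raised at 24 h was 9.67% of the 2916 genes raised at 1 of the 4 earlier times, 19.7% of 1954 genes raised at 2 of them, 23.3% of 1172 genes raised at 3 and 33.9% of 578 genes raised at all 4. The share lowered at 24 h was 9.27%, 23.1%, 26.7% and 36.4% for genes lowered at 1, 2, 3 and 4 earlier times. The 196 genes raised at all 5 times had a median log2 fold change of 1.46 at 24 h, compared with 3.04 at 12 h. For the 82 genes lowered at all 5 times the medians were -0.62 at 24 h and -0.94 at 12 h.

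The size of the 12 h difference went with the outcome at 24 h as well. Of all genes tested, 7.58% were raised and 7.97% lowered at 24 h. Among genes raised at 12 h by a log2 fold change of up to 1, 15.6% were raised at 24 h, with a median 24 h log2 fold change of 0.15. The share was 23.9% for changes between 1 and 2 (median 0.31), 36.02% between 2 and 4 (median 0.77) and 56.7% for the 330 genes above 4. In that last class the median was 2.34 at 24 h, or 2.08 with genes at 0 in mock set to their lower bound. For genes lowered at 12 h the shares were 18.5%, 26.8% and 30.9% in the first 3 classes, and 8 genes were lowered by more than 4, of which 2 were lowered at 24 h.

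A direct test asked for which genes the SA difference at 24 h was not that at 12 h. It called 4308 genes (23.2% of those tested), 2231 (12%) with a higher and 2077 (11.2%) with a lower difference at 24 h. Of the genes raised at 12 h, 1863 lay closer to mock or on its other side at 24 h by this test, and 14 had a larger rise. Of the genes lowered at 12 h, 2006 lay closer to mock or on its other side at 24 h, and 2 had fallen further. The 12 h libraries entered both the list and the test, which favours a smaller difference at 24 h.

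At 24 h, 293 genes were called that were called at no earlier time, 134 of them raised and 159 lowered (10.1% of the 24 h calls). Their median absolute log2 fold change was 0.62, against 0.66 for all 24 h calls. The 293 genes included the largest fitted fall of the comparison, of -6.71 on the log2 scale. Fitted falls of genes without counts in SA depend on the prior count. The direct test separated the 24 h from the 12 h difference for 109 of the 293 genes, where it called 23.2% of all genes tested. The others were not shown to differ between the times. The libraries of 12 and 24 h entered both the choice of the 293 genes and the test. That choice favours a difference between the times, so nothing is read from the 109. The fit of the 6 libraries of 24 h called 149 of the 293, and 174 were called without mock replicate 3.

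SA leaves of 24 h were also compared directly with leaves of the other hormones at 24 h. Mock did not enter these contrasts, but the mock libraries of 24 h were part of the fit. Fits of only the 6 libraries of the 2 groups called 8023 genes against ET, 3902 against MeJA and 3631 against ABA. The values that follow are from the fit with mock. SA differed from ET in 7575 of 17474 genes (43.4%), 3745 higher (21.4%) and 3830 lower (21.9%) after SA. It differed from MeJA in 3297 genes (18.9%), 1650 higher (9.44%) and 1647 lower (9.43%), and from ABA in 3076 genes (17.6%), 1463 higher (8.37%) and 1613 lower (9.23%). With library totals the splits were 4378 higher and 2924 lower against ET, 3191 and 952 against MeJA, and 3101 and 916 against ABA. The 100 heavily counted genes held 28.5 ± 0.197% of counts in SA leaves of 24 h, 30.1 ± 1.76% in ET leaves, 32.1 ± 1.29% in MeJA leaves, 32.3 ± 0.412% in ABA leaves and 34.4 ± 1.97% in mock leaves (SD, n = 3 each).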

How the data were processed

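The deposited values were raw counts per gene. To make them, the authors used cutadapt 1.15 and Trimmomatic 0.38 on the reads, HISAT2 for mapping to CM334 (genome v.1.6) and HTSeq 0.11.2 for counting (tools and versions from the submitters' processing notes). Strand-specific libraries were made from poly(A) RNA. The strand setting of the counting and the treatment of reads with several positions are not given in the sources used here, so overlapping genes and near-identical copies are uncertain. Bukang reads were mapped to another cultivar.

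Groups came from the sample titles. All 35884 genes entered, and 18569 passed filterByExpr. One model for the 15 SA and 15 mock libraries from 1 to 24 h was fitted in R 4.3.3 with edgeR 4.0.16 (TMM, glmQLFit, glmQLFTest), with Benjamini-Hochberg adjustment over all genes tested. Direct comparisons of hormones used the 15 libraries of 24 h. Levels are CPM with TMM factors over all 78 libraries. Alternatives were RLE, DESeq2 1.42.0, other filters, other sets of libraries, a fold-change threshold, a replicate block, left-out libraries and, chosen after seeing the data, library totals and thinning. The code was tested on simulated data.

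The members, lists and tests were chosen with earlier results of these data known. Genes named had to pass 0.05, to separate all SA from all mock libraries, and to have at least 10 counts in each library of the higher group. In each direction, the largest log2 fold change and the largest CPM difference were taken. None of the identifiers (0 of 35884) matched the RefSeq gene table used, whose assembly is another one.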

Additional observations from a re-analysis of the deposited data

Results flagged for a closer look

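The effect of SA differed between 24 h and 12 h for 4308 genes by a direct test of the 2 differences (edgeR). The count was between 3675 and 4314 over the alternatives run. Among the genes given by identifier, CA.PGAv.1.6.scaffold1405.6 differed by -1.56 on the log2 scale between its 24 h and 12 h differences (adjusted p = 0.032, edgeR, and up to 0.115 over 13 alternatives, 8 of which passed). CA.PGAv.1.6.scaffold225.2 differed by 0.64 (adjusted p = 0.0403, edgeR, and up to 0.12 over 13 alternatives, 8 of which passed).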

How the results depend on the processing

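A count was taken as changed when it moved by more than 1.5 times. Over the 6 counts of genes, 83 alternative values stayed within that range and 5 did not. Library totals, chosen after seeing the data, moved the SA against mock count at 24 h to 4348 genes and turned its balance to 83.9% higher, compared with 48.7%. They also set 77.2% higher against ABA (47.6% with TMM), 77% against MeJA (50%), 60% against ET (49.4%), and 84.2% raised among genes called at both 12 and 24 h (51%). A log2 fold change of at least 1 left 763 genes for SA against mock, 2106 against ET, 897 against MeJA and 810 against ABA. With 1 library of 24 h left out, SA against mock ranged from 2058 to 2628 genes. The 4 genes given by identifier kept their sign and passed the test in every alternative run, 2 of them without the minimum of 10 counts in every library, which they did not meet. They were chosen for large changes in these data. Same-numbered SA and mock libraries did not deviate together (correlations of -0.0157, 0.0186 and -0.0118). The main fit used no pairing by number, and a shared origin of such libraries was not tested. The replicate block gave 2913 genes for SA against mock. Depth limits the low genes, for which differences near the floor of 3 counts per library cannot be seen.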

Other observations

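Genes were also looked at by their consecutive identifier numbers on a scaffold, as a description with no test. Of the 1144 raised genes with a tested gene directly before or after them in this numbering, 185 (16.2%) had such a neighbour raised as well, compared with 10.5% of all 15334 tested genes with a tested neighbour. For lowered genes it was 204 of 1255 (16.3%), compared with 11.9%. The longest uninterrupted runs were 5 raised genes and 4 lowered genes. Whether the numbers follow the order on the chromosome, and whether neighbours share reads as near-identical copies, was not tested.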
